A study of Anthurium andraeanum with 18 samples.

Results

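The genes of the Calvin cycle, Rubisco and photorespiration were followed in leaves of Anthurium andraeanum under heat. They were taken from the descriptions in the deposited gene table, by a text match to the names of Rubisco and its activase, phosphoribulokinase, sedoheptulose bisphosphatase, fructose-1,6-bisphosphatase, the plastid glyceraldehyde-3-phosphate dehydrogenases A and B, transketolase, ribulose-phosphate 3-epimerase, phosphoglycolate phosphatase, glycolate oxidase, hydroxypyruvate reductase, glycine dehydrogenase and the glycine cleavage system. The match found 42 of the 158487 assembled genes, of which 39786 carry any description. All 42 matched through their Swiss-Prot entry, and none of them is a glycolate oxidase, an enzyme that the table names 2-hydroxy-acid oxidase. KEGG entries of the table place 36 of the 42 in the carbon fixation pathway or in the glyoxylate and dicarboxylate pathway, while 5 of the 6 activase entries carry the KEGG entry of a ribosomal protein instead.

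The libraries come from 2 plant materials that the sample titles call Ken and MH, without saying what these are or giving a genotype. The plants were in full flower and were kept in chambers with 12 h of day. Control plants of both materials stayed at 25 °C. The Ken 38 and MH 38 leaves were taken after 3 days at 38 °C by day and 33 °C by night. The Ken 40 and MH 40 leaves had passed through that regime and then 3 more days at 40/35 °C, so their temperature cannot be told apart from their longer time under heat. Each of the 6 groups holds 3 libraries, which the titles call biological replicates without naming separate plants. A p-value here sets a group difference against the spread among these libraries, and may not hold beyond the plants sampled.

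Rubisco, built from large and small chains, joins CO2 to ribulose-1,5-bisphosphate, and its activase, a protein known to lose activity in warm leaves, frees its active sites. The Calvin cycle then reduces the product to triose phosphate and rebuilds the acceptor through the bisphosphatases, transketolase, the epimerase and phosphoribulokinase. When Rubisco takes up O2 in place of CO2, a reaction that heat favours, photorespiration recovers the phosphoglycolate through a phosphatase in the plastid, enzymes of the peroxisome, and the glycine cleavage system of the mitochondrion.

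The libraries held 15845190 to 22867268 estimated counts each. Levels are given in TPM, a transcript level scaled by length and library total, as the authors deposited them. Tests are edgeR quasi-likelihood tests of the counts over 70022 genes, with adjusted p-values by the Benjamini-Hochberg method, and rose, fell and called mean an adjusted p below 0.05. A log2 change is an edgeR estimate ± its standard error after trimmed-mean (TMM) scaling. On that scale the median of all tested genes changed relative to the control by 0.42 (38/33 °C) and 0.30 (40/35 °C) in Ken and by 0.73 and 1.03 in MH. Scaled by library totals alone, these medians were 0.97, 0.76, 1.55 and 2.02, so a ratio of TPM values shows a smaller fall than the log2 change does. Of 71 markers of photosynthetic leaf tissue 61 were detected in Ken control and 58 in MH control. The library called MH 38 replicate 3 lay nearer to its control than the other 2 of its group, at 0.40 of the way from MH control to MH 40 over all tested genes against 0.68 and 0.73.

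At 25 °C the 42 genes together made up 4.3% of all TPM in Ken and 5.2% in MH. This order rests on the small chain and the activase, since without both the sum in MH control was 0.86 times that in Ken control. Their summed level was 42308 ± 2015 TPM (SD, n = 3) in the Ken controls, 4825 ± 620 TPM at 38/33 °C and 1585 ± 178 TPM at 40/35 °C. In MH it was 51681 ± 1129 TPM in the control, 4404 ± 4589 TPM in MH 38 and 499 ± 125 TPM in MH 40. The sum in the controls was 8.77 times that of Ken 38 and 26.7 times that of Ken 40, and in MH 11.7 and 103.5 times those of the heated groups. The large SD of MH 38 comes from replicate 3, with 9679 TPM against 2200 and 1333 in the others, all of them far below the controls. In leaves sequenced in bulk, fewer photosynthetic cells and less RNA of these genes per cell cannot be told apart. The summed level of the 71 photosynthetic markers moved the same way, from 92595 to 112478 TPM in Ken control to 1511 to 1646 TPM in Ken 40, and from 126658 to 150935 TPM in MH control to 514 to 963 TPM in MH 40. The 9 markers of senescing leaves, among them pheophorbide a oxygenase and STAY-GREEN of chlorophyll breakdown, went from 108 to 132 TPM in Ken control to 508 to 663 TPM in Ken 40, and from 51.9 to 103 TPM in MH control to 436 to 539 TPM in MH 40. Summed levels of 19 xylem markers went from 434 to 635 TPM in Ken control to 104 to 109 TPM in Ken 40 and from 523 to 899 TPM in MH control to 134 to 158 TPM in MH 40, and those of 8 guard cell and epidermis markers from 52.9 to 60.0 TPM to 6.77 to 11.4 TPM in Ken and from 45.8 to 52.9 TPM to 2.03 to 3.32 TPM in MH. At 38/33 °C the photosynthetic markers summed to 20347 to 23352 TPM in Ken and 2063 to 32810 TPM in MH, the senescing leaf markers to 254 to 295 and 196 to 345 TPM, the xylem markers to 159 to 165 and 254 to 333 TPM, and the guard cell markers to 16.6 to 19.0 and 5.83 to 72.3 TPM. The 19 flower markers were highest at 38/33 °C without overlap, with 224.5 to 253 TPM in Ken against 137 to 157 in its control and 103 to 126 in Ken 40, and with 252 to 319.9 TPM in MH against 149 to 191 in its control and 163 to 178 in MH 40. The part of these tissues in the results was not tested.

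**Figure D1:**
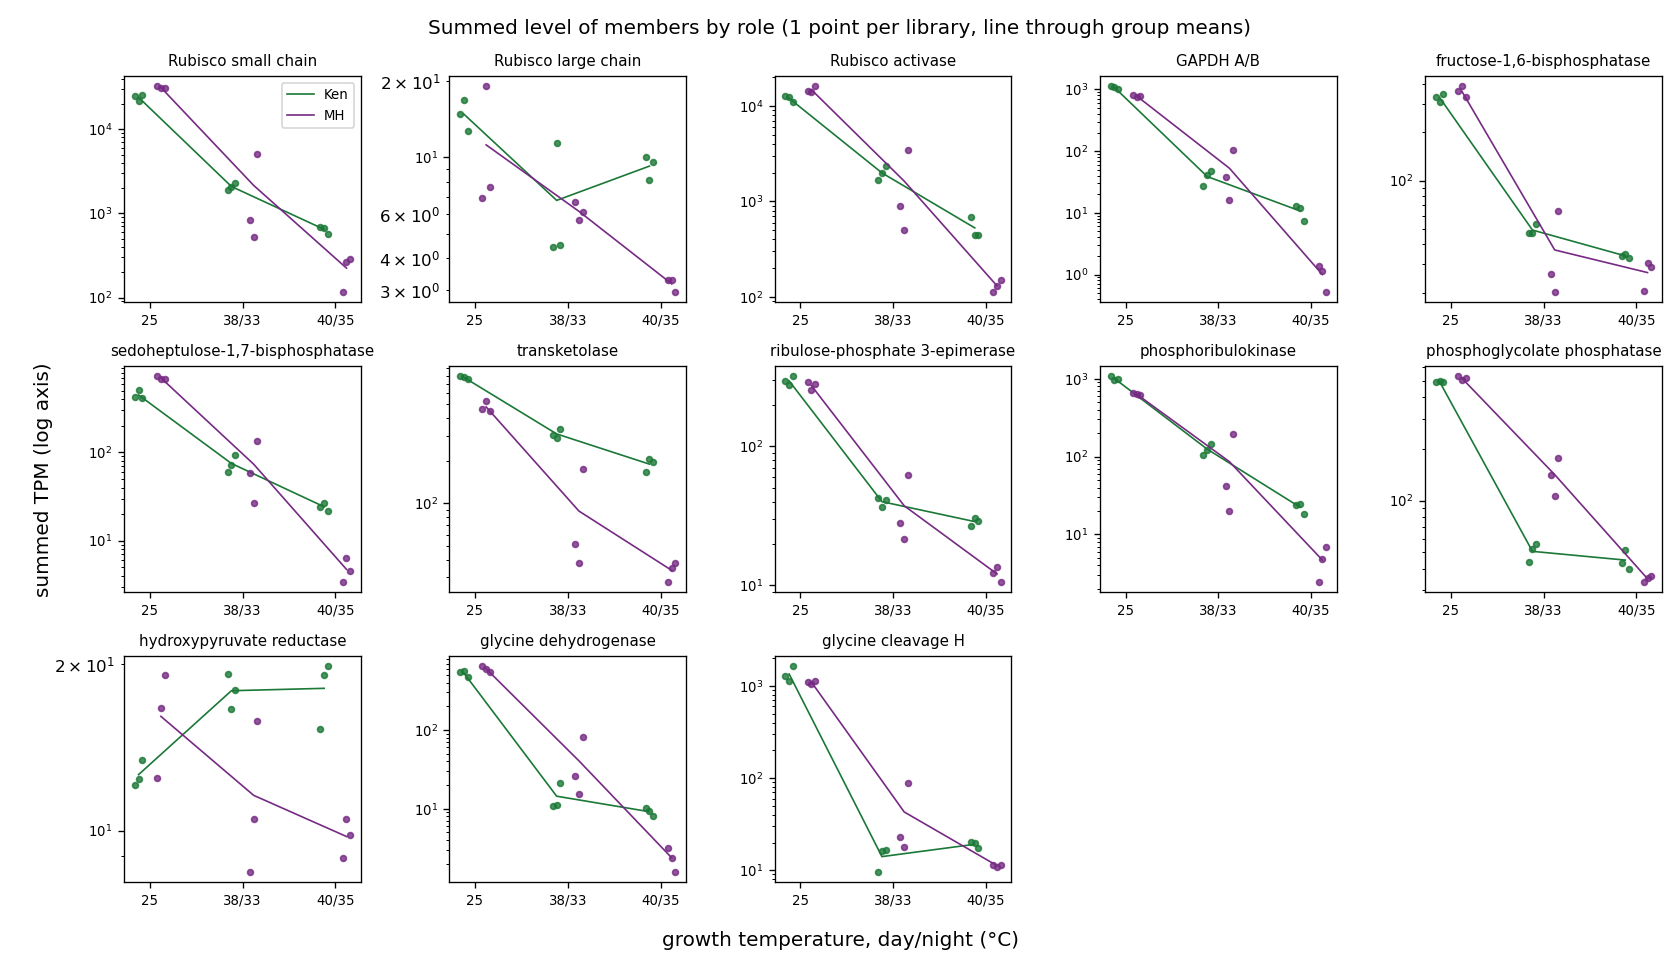
Summed TPM (log axis) of the members of each enzyme role at 25 °C, 38/33 °C and 40/35 °C, with 1 point per library and a line through the group means for Ken and MH. Hydroxypyruvate reductase changes least and the Rubisco large chain is low throughout, while the other roles drop under heat, and MH 38 replicate 3 lies above the other 2 MH 38 libraries in most panels.

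Of the 42 genes 34 had enough counts for a test. In Ken 38 against its control 26 of them fell and 2 rose, where 15.9% of all tested genes fell and 20.3% rose. In Ken 40 against its control 26 fell and 3 rose, against 20.7% and 25.1% of all tested genes. In MH 38 against its control 29 fell and 2 rose, against 17.3% and 30.1% of all. In MH 40 against its control 29 fell and 2 rose, against 24.6% and 42.7% of all, so that 67.4% of all tested genes were called there. Every member carries a description, and of the 29143 tested genes with one 29.2%, 32.5%, 30.6% and 42.1% fell and 18.8%, 23.4%, 23.2% and 29.7% rose in that order. Scaled by library totals alone, 24, 25, 24 and 28 of the 34 fell in these comparisons and 4, 4, 4 and 3 rose, while the share of rises among all called genes went from 56.1% to 76.6%, 54.8% to 68.4%, 63.5% to 85.2% and 63.4% to 79.3%. The median log2 change of the 34 was -2.20, -4.34, -3.13 and -4.82 in that order, or -2.23, -4.40, -3.13 and -4.78 with a gene that is at 0 in 1 group set to a floor of 3 counts per library and a gene at or under that floor in both groups left out. Genes with a description had medians near 0, from -0.29 to -0.07. The same 24 genes fell in all 4 comparisons, 3 fell in 3 of them, 2 in 2, and 1 in 1. No gene of the 34 rose in one comparison and fell in another. Comparisons within a material share their control libraries, so their calls are not independent. How many of all tested genes fell in all 4 was not counted. The 14 genes with at least 100 TPM in both controls fell in all 4, and in each comparison every heated library lay below every control library. Their choice by a high level in these same controls favours a fall. The share of all genes at such a level that did so was not counted. The 14 are the dominant Rubisco small chain, 2 activases, the B subunit of the plastid dehydrogenase, a plastid fructose-1,6-bisphosphatase, sedoheptulose-1,7-bisphosphatase, 2 transketolases, the plastid epimerase, phosphoribulokinase, 2 phosphoglycolate phosphatases, glycine dehydrogenase and the main glycine cleavage H protein. Their mean TPM was between 0.80% and 46.9% of the control in Ken 38 and between 0.24% and 31.4% in Ken 40. In MH it was between 2.78% and 21.8% at 38/33 °C and between 0.085% and 7.39% at 40/35 °C.

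**Figure D2:**
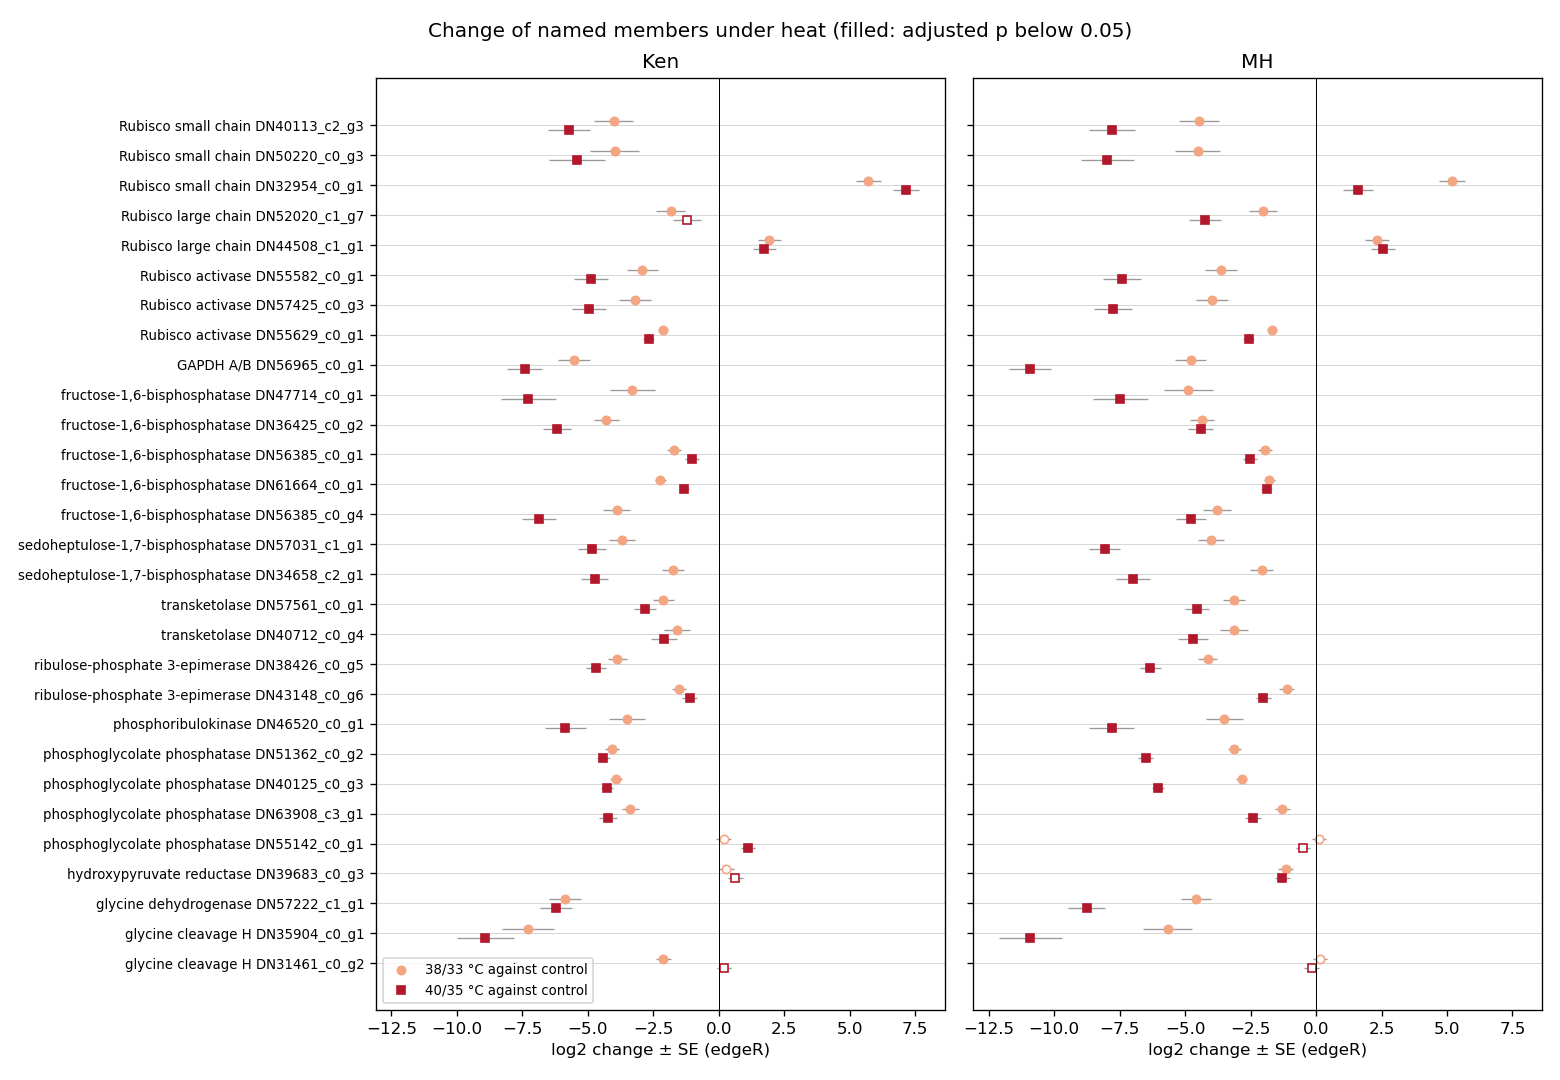
Log2 change ± SE (edgeR, n = 3 libraries per group) of the 29 named genes against the 25 °C control, for Ken on the left and MH on the right, with circles for 38/33 °C, squares for 40/35 °C and filled symbols for an adjusted p below 0.05. Most symbols lie left of 0, down to -10.93 for GAPB in MH 40, and only a small chain, a large chain and PGLP2 have filled symbols to the right of 0.

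The small chain of Rubisco is encoded in the nucleus and imported into the plastid. The entry TRINITY_DN40113_c2_g3 (RBCS) had the highest mean TPM of the 42 genes in both controls. It measured 24629, 21303 and 25558 TPM at 25 °C, 1887, 2001 and 2296 at 38/33 °C and 649.8, 617 and 503 at 40/35 °C in Ken. In MH it measured 16330.2, 15829 and 15759 TPM at 25 °C, 436, 286 and 2593 at 38/33 °C and 62.9, 153 and 149 at 40/35 °C. No heated library overlapped with its controls, and MH 38 replicate 3 was several times above the other 2. The log2 change was -4.005 ± 0.74 in Ken 38 and -5.73 ± 0.80 in Ken 40, and in MH -4.48 ± 0.76 at 38/33 °C and -7.78 ± 0.88 at 40/35 °C, with adjusted p-values of 0.000998, 8.86e-05, 0.000471 and 8.6e-06.

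The entry TRINITY_DN50220_c0_g3 (SSU26, 330 bases) set the materials apart before any heat. It measured 99.5, 49.9 and 86.6 TPM at 25 °C, 3.75, 7.27 and 10.3 at 38/33 °C and 1.7, 4.17 and 1.24 at 40/35 °C in Ken. The MH libraries gave 16047, 14931 and 15208 TPM at 25 °C, 388, 229.9 and 2482 at 38/33 °C and 52.2, 113 and 139 at 40/35 °C. At 25 °C its MH libraries overlapped in TPM with those of the main small chain, while in Ken it was far lower, with no overlap between the materials. The difference between MH control and Ken control was a log2 change of 8.59 ± 1.04 (adjusted p = 7.65e-05). It held 49.1% of the summed small chain TPM in MH control and 0.32% in Ken control. In estimated counts it was far smaller than the main entry also in MH, with 60015 to 76558 counts per control library against 461192 to 572137, as TPM also scales by transcript length. Under heat it kept 46.1% of the small chain TPM in MH 38 and 45.1% in MH 40 while it fell in all 4 comparisons with a log2 change of -3.96 ± 0.94 in Ken 38 and -5.41 ± 1.08 in Ken 40, and in MH -4.52 ± 0.86 at 38/33 °C and -7.97 ± 1.01 at 40/35 °C. Near-identical small chain genes can share reads, and how the authors' counting divides them is not known, so the split between the 2 entries is uncertain, while the sum of their counts does not depend on it. In mean counts per control library the 2 entries had 767598 and 168 in Ken and 515364 and 67414 in MH, so that the order of the materials in summed TPM, which is higher in MH, is not that in counts.

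Another small chain entry, TRINITY_DN32954_c0_g1 (RBCS, 938 bases), did the opposite. It measured 0.1, 0.61 and 0.54 TPM at 25 °C, 20.3, 19.2 and 16.96 at 38/33 °C and 38.7, 45.5 and 58.9 at 40/35 °C in Ken. Its levels in MH were 0.15, 0.09 and 0.61 TPM at 25 °C, 18.7, 11.3 and 6.88 at 38/33 °C and 1.27, 1.97 and 0.58 at 40/35 °C. Every library of Ken 38, Ken 40 and MH 38 lay above every control library, and the MH 40 libraries overlapped with the controls. It rose with a log2 change of 5.72 ± 0.49 in Ken 38 and 7.14 ± 0.50 in Ken 40, and in MH 5.18 ± 0.50 at 38/33 °C and 1.60 ± 0.56 at 40/35 °C, the last with an adjusted p of 0.0157 that became 0.0636 without MH control replicate 1, 0.0927 without MH control replicate 2 and 0.0528 without MH 40 replicate 2 (edgeR). From 38/33 to 40/35 °C it rose further in Ken, by 1.42 ± 0.36, and fell in MH, with a log2 change of -3.59 ± 0.42. The heat response at 40/35 °C differed between the materials by -5.54 ± 0.86 (adjusted p = 6.6e-05). Its level stayed small beside the main entry in every group, and its share of the small chain TPM in Ken went from 0.0018% at 25 °C to 0.91% at 38/33 °C and 7.56% at 40/35 °C.

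**Figure D3:**
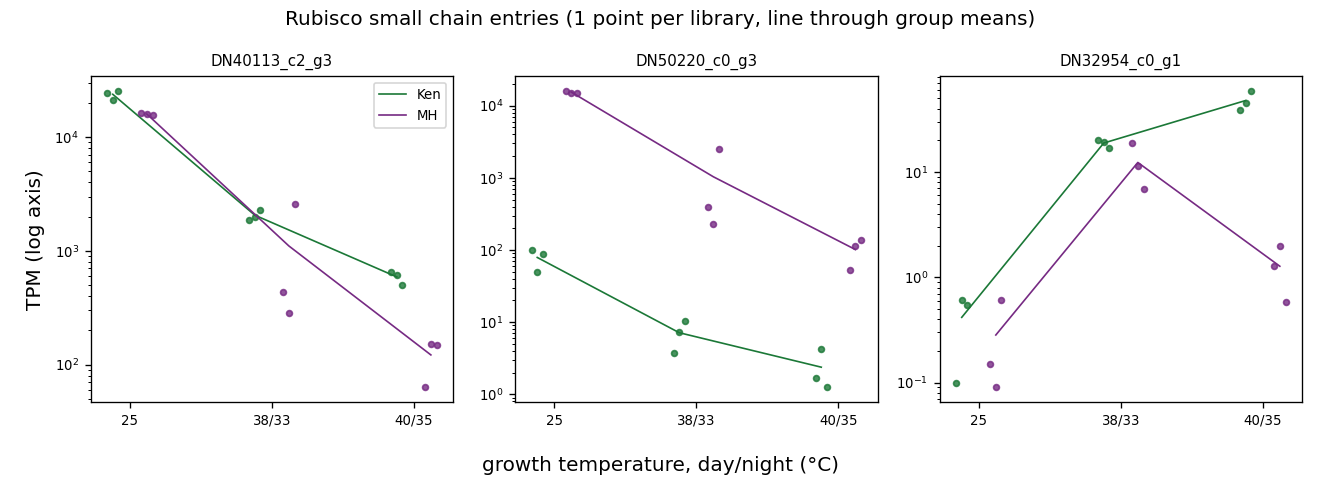
TPM (log axis) of 3 Rubisco small chain entries at 25 °C, 38/33 °C and 40/35 °C, with 1 point per library and a line through the group means. DN40113_c2_g3 falls in both materials, DN50220_c0_g3 lies between 14931 and 16047 TPM in MH control and between 49.9 and 99.6 TPM in Ken control, and DN32954_c0_g1 is higher under heat, except that MH 40 returns close to its control.

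The large chain of Rubisco is encoded in the plastid genome, and how well plastid RNA is captured depends on a selection step that the sources used here do not give. The 2 large chain entries were low. The entry TRINITY_DN52020_c1_g7 (rbcL) measured 14.6, 16.6 and 12.5 TPM at 25 °C, 2.71, 10.6 and 3.24 at 38/33 °C and 9.21, 7.04 and 8.3 at 40/35 °C in Ken. The values in MH were 6.73, 18.8 and 7.23 TPM in the control, 4.35, 3.19 and 5.38 TPM in MH 38 and 0.55, 0.98 and 1.37 TPM in MH 40. The heated libraries lay below the controls in all 4 pairs, with an adjusted p (edgeR) of 0.0175 in Ken 38 and 0.0776 in Ken 40, and of 0.00885 and 4.77e-05 in the heated MH groups. The call in Ken 38 was lost without Ken control replicate 2, Ken 38 replicate 1 or Ken 38 replicate 3, and that in MH 38 without MH control replicate 2 or MH 38 replicate 2. The other entry, TRINITY_DN44508_c1_g1 (rbcL), was at 0.17 to 0.42 TPM in the controls and at 0.70 to 2.75 TPM in the heated libraries, with no overlap. It rose in all 4 comparisons, by 1.93, 1.75, 2.32 and 2.55 on the log2 scale, from a level near the lower end of what was tested.

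Rubisco activase is the chaperone-like ATPase that removes sugar phosphates from Rubisco. The entry TRINITY_DN55582_c0_g1 (RCA1) measured 6819, 7217 and 6001 TPM at 25 °C, 939, 1171 and 1334 at 38/33 °C and 359, 224 and 264 at 40/35 °C in Ken. In MH it measured 6859, 6420.0 and 7514 TPM at 25 °C, 406, 239 and 1649 at 38/33 °C and 51.4, 62.2 and 75.7 at 40/35 °C. The heated libraries lay far below the controls, and lowest in MH 40. Its log2 change was -2.92 ± 0.59 in Ken 38 and -4.86 ± 0.65 in Ken 40, and in MH -3.61 ± 0.61 at 38/33 °C and -7.42 ± 0.73 at 40/35 °C. The entry TRINITY_DN57425_c0_g3 (RCA) followed it closely, from 4943 to 5805 TPM in Ken control to 174.7 to 319.6 TPM in Ken 40, and from 7305 to 8551 TPM in MH control to 48.7 to 61.0 TPM in MH 40, with log2 changes from -3.20 in Ken 38 to -7.75 in MH 40. In Ken control the first entry had the higher TPM and the second more counts, 615707 against 277780 over the 3 libraries, so their order depends on the transcript lengths that the authors' TPM uses. Another activase, TRINITY_DN55629_c0_g1 (RCA1), was lower at 39.3 to 51.4 TPM in the controls and kept more under heat. It measured 8.65, 7.79 and 8.5 TPM in Ken 40 and 12.4, 10.4 and 13.9 TPM in MH 40, and fell with a log2 change of -2.13 ± 0.19 in Ken 38 and -2.68 ± 0.20 in Ken 40, and in MH -1.68 ± 0.19 at 38/33 °C and -2.58 ± 0.20 at 40/35 °C. No activase entry rose in any comparison.

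The reduction step is carried by the plastid glyceraldehyde-3-phosphate dehydrogenase, which uses NADPH. Its B subunit, TRINITY_DN56965_c0_g1 (GAPB), measured 1123, 1076 and 1033 TPM at 25 °C, 27.3, 37.1 and 46.9 at 38/33 °C and 10.1, 8.84 and 7.36 at 40/35 °C in Ken. The MH libraries gave 802, 764 and 764 TPM at 25 °C, 31.7, 15.9 and 98.5 at 38/33 °C and 1.36, 1.13 and 0.52 at 40/35 °C. The MH 40 libraries were the lowest of all, and Ken 40 kept several times more. Its log2 change was -5.52 ± 0.62 in Ken 38 and -7.40 ± 0.67 in Ken 40, and in MH -4.79 ± 0.59 at 38/33 °C and -10.93 ± 0.78 at 40/35 °C, and the MH 40 value lay within its error of that of the main H protein, the next lowest among the 29 named genes. The 3 entries described as the A subunit are fragments of 212 to 342 bases with too few counts for a test.

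Fructose-1,6-bisphosphatase takes a phosphate off on the way back to the acceptor in the plastid, and a cytosolic form does so on the way to sucrose. The plastid entry TRINITY_DN47714_c0_g1 measured 126, 142 and 155 TPM at 25 °C, 19.7, 16.5 and 22.2 at 38/33 °C and 1.89, 0.9 and 0.66 at 40/35 °C in Ken. Its levels in MH were 227, 251 and 201 TPM at 25 °C, 4.49, 1.83 and 27.8 at 38/33 °C and 0.69, 2.74 and 2.87 at 40/35 °C. Both materials ended within the same few TPM at 40/35 °C, and no heated library overlapped with its controls. Its log2 change was -3.30 ± 0.86 in Ken 38 and -7.28 ± 1.05 in Ken 40, and in MH -4.88 ± 0.93 at 38/33 °C and -7.48 ± 1.05 at 40/35 °C. A second plastid entry, TRINITY_DN61664_c0_g1, was lower in the controls, at 18.6 to 24.3 TPM in Ken and 11.5 to 16.3 TPM in MH, and fell less. It measured 6.8, 6.15 and 7.41 TPM in Ken 38 and 12.2, 11.3 and 10.4 TPM in Ken 40, so that it rose again by 0.91 ± 0.21 between the 2 heated groups of Ken (adjusted p = 0.00194). In MH the same step was -0.09 ± 0.21 (adjusted p = 0.788). Of the 3 cytosolic entries, TRINITY_DN36425_c0_g2 fell with a log2 change of -4.30 ± 0.47 in Ken 38 and -6.17 ± 0.52 in Ken 40, and in MH -4.36 ± 0.47 at 38/33 °C and -4.40 ± 0.47 at 40/35 °C from 102 to 135 TPM in Ken control and 78.7 to 81.8 TPM in MH control. The fragment TRINITY_DN56385_c0_g4 fell with log2 changes of -3.89, -6.86, -3.78 and -4.78. The entry TRINITY_DN56385_c0_g1 (FBPban1) kept more, with 28.6, 29.6 and 30.3 TPM in Ken control, 17.4, 20.4 and 20.3 TPM in Ken 40, 27.1, 31.02 and 25.4 TPM in MH control and 9.02, 10.2 and 7.27 TPM in MH 40. Its fall in Ken 40, -1.03 ± 0.26, was called with TMM scaling and not with library totals alone, where it was -0.56.

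Sedoheptulose-1,7-bisphosphatase acts only in the Calvin cycle. The entry TRINITY_DN57031_c1_g1 measured 398, 481 and 391 TPM at 25 °C, 53.2, 61.2 and 80.4 at 38/33 °C and 23.1, 25.3 and 20.5 at 40/35 °C in Ken. The values in MH were 719, 672 and 673 TPM at 25 °C, 55.04, 25.4 and 129.6 at 38/33 °C and 3.31, 6 and 4.48 at 40/35 °C. It was higher in every MH control library than in any Ken control library and lower in every MH 40 library than in any Ken 40 library. The control difference, 0.77 ± 0.44 on the log2 scale, had an adjusted p of 0.253. Under heat the log2 change was -3.69 ± 0.49 in Ken 38 and -4.84 ± 0.52 in Ken 40, and in MH -4.01 ± 0.50 at 38/33 °C and -8.07 ± 0.61 at 40/35 °C. A shorter entry, TRINITY_DN34658_c2_g1, was at 22.5 to 26.1 TPM in Ken control and 7.92 to 11.1 TPM in MH control, a log2 difference of -1.43 ± 0.43 (adjusted p = 0.0188), and it fell in all 4 comparisons. The fragment TRINITY_DN57031_c1_g4 had counts nearly only in MH control, 123 over the 3 libraries, with 1 count in Ken control and 0 in all 12 heated libraries.

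Transketolase moves carbon units between sugar phosphates and also serves the pentose phosphate pathway. Its 2 entries had the smallest falls of the 14 abundant genes in Ken 38, Ken 40 and MH 40, though not in MH 38. The entry TRINITY_DN57561_c0_g1 measured 520.2, 530.5 and 495 TPM at 25 °C, 182, 172 and 206 at 38/33 °C and 94.5, 112 and 115 at 40/35 °C in Ken. In MH it measured 295, 318 and 276 TPM at 25 °C, 34.99, 23.98 and 107 at 38/33 °C and 19.6, 22.7 and 23.3 at 40/35 °C. The Ken 40 libraries lay well above the MH 40 libraries, without overlap, but the Ken controls were also above the MH controls. Its log2 change was -2.11 ± 0.41 in Ken 38 and -2.81 ± 0.42 in Ken 40, and in MH -3.14 ± 0.42 at 38/33 °C and -4.55 ± 0.45 at 40/35 °C. The entry TRINITY_DN40712_c0_g4 fell with a log2 change of -1.58 ± 0.50 in Ken 38, a call (edgeR) that was lost with library totals alone (-1.001), without a filter on low counts (-1.57) and with any 1 of the 6 libraries left out (-1.63 to -1.54), while all 3 heated libraries stayed below all controls. In MH it fell with log2 changes of -3.13 and -4.71.

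Ribulose-phosphate 3-epimerase makes ribulose 5-phosphate. The plastid entry TRINITY_DN38426_c0_g5 went from 254 to 302 TPM in Ken control to 31.9, 28.2 and 31.8 TPM in Ken 38 and 15.6, 20.3 and 16.8 TPM in Ken 40. In MH it went from 236 to 273 TPM in the control to 19.7, 13.1 and 46.8 TPM in MH 38 and 5.46, 6.45 and 5.18 TPM in MH 40. The cytoplasmic isoform TRINITY_DN43148_c0_g6 measured 11.2 to 20.8 TPM in the controls and 5.41 to 15.8 TPM in the heated libraries, and MH 38 overlapped with MH control. The plastid form fell with log2 changes of -3.88, -4.68, -4.13 and -6.33, the cytoplasmic form by -1.52, -1.11, -1.13 and -2.02. The fall of the cytoplasmic form in MH 38 was not called with library totals alone (-0.34).

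Phosphoribulokinase closes the cycle by making the acceptor of CO2, and a single entry, TRINITY_DN46520_c0_g1, carries that name. It measured 1075, 950.1 and 1001 TPM at 25 °C, 104, 123 and 147 at 38/33 °C and 24.1, 24.6 and 18.6 at 40/35 °C in Ken. The MH libraries gave 662, 629.6 and 609 TPM at 25 °C, 42.5, 20.1 and 195 at 38/33 °C and 2.45, 4.85 and 6.83 at 40/35 °C. The groups stepped down without overlap in Ken, and in MH the 38/33 °C libraries were spread over a wide range between control and MH 40. Its log2 change was -3.50 ± 0.70 in Ken 38 and -5.87 ± 0.78 in Ken 40, and in MH -3.51 ± 0.70 at 38/33 °C and -7.81 ± 0.86 at 40/35 °C.

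Phosphoglycolate phosphatase, the entry enzyme of photorespiration, has 6 entries. The main one, TRINITY_DN51362_c0_g2 (PGLP1A), measured 239, 243 and 235 TPM at 25 °C, 13.2, 19.3 and 23.98 at 38/33 °C and 15.7, 15.1 and 13.9 at 40/35 °C in Ken. Its levels in MH were 273, 250.3 and 261 TPM at 25 °C, 49.6, 35.1 and 65.7 at 38/33 °C and 5.39, 5.55 and 4.3 at 40/35 °C. In Ken it was at its low level already at 38/33 °C, while MH 38 lay between its control and MH 40, and MH 40 lay below Ken 40. The log2 change was -4.08 ± 0.25 in Ken 38 and -4.40 ± 0.26 in Ken 40, and in MH -3.12 ± 0.24 at 38/33 °C and -6.50 ± 0.29 at 40/35 °C. The entry TRINITY_DN40125_c0_g3 (PGLP1A) had the same course, with 12.7, 13.9 and 17.1 TPM in Ken 38, 41.7, 28.8 and 47.4 TPM in MH 38, 15.3, 13.3 and 10.2 TPM in Ken 40 and 5.15, 4.94 and 3.73 TPM in MH 40 from 173 to 188 TPM in all controls. The response of this gene differed between the materials in opposite directions at the 2 temperatures, by 1.09 ± 0.28 at 38/33 °C (adjusted p = 0.0136), where MH fell less, and by -1.76 ± 0.29 at 40/35 °C (adjusted p = 0.000111), where MH fell more.

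The PGLP1A entry TRINITY_DN63908_c3_g1 fell less in MH than in Ken at both temperatures. It measured 64.2, 55.3 and 59.6 TPM at 25 °C, 9.04, 7.48 and 6.31 at 38/33 °C and 4.77, 7.65 and 1.67 at 40/35 °C in Ken. The values in MH were 64.7, 62.4 and 58.7 TPM at 25 °C, 36.1, 28 and 49.04 at 38/33 °C and 14.2, 15.2 and 18.2 at 40/35 °C. The heated MH libraries lay above the heated Ken libraries at each temperature, from controls that overlapped. The responses differed by 2.09 ± 0.42 at 38/33 °C (adjusted p = 0.00238) and by 1.81 ± 0.43 at 40/35 °C (adjusted p = 0.00391). Its fall in MH 38, -1.29 ± 0.29, was not called with library totals alone (-0.48). The entries TRINITY_DN40125_c0_g5 and TRINITY_DN51362_c0_g3 (PGLP1A), at 1.5 to 5.24 TPM in the controls, also fell in both materials at 40/35 °C.

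The cytosolic isoform in Arabidopsis, phosphoglycolate phosphatase 2, is represented by TRINITY_DN55142_c0_g1 (PGLP2). It measured 4, 5.23 and 4.39 TPM at 25 °C, 6.26, 8.85 and 4.89 at 38/33 °C and 7.46, 15.6 and 14 at 40/35 °C in Ken. In MH it measured 5.9, 8.21 and 5.13 TPM at 25 °C, 12.5, 13.8 and 11.4 at 38/33 °C and 8.4, 9.42 and 9.58 at 40/35 °C. Ken 40 lay above its controls in every library, and so did both heated groups of MH on the TPM scale. It rose in Ken 40 by 1.12 ± 0.28 (adjusted p = 0.00237) and had no call in the other 3 comparisons, at 0.18 in Ken 38, 0.11 in MH 38 and -0.50 in MH 40. With library totals alone the change was called as a rise in Ken 38 (0.74) and MH 38 (0.95), and in MH 40 it was 0.50, so the direction in MH 40 depends on the scaling.

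Hydroxypyruvate reductase returns carbon to glycerate, and HPR3 is a minor form in Arabidopsis. The entry TRINITY_DN39683_c0_g3 (HPR3) measured 8.26, 6.83 and 7.23 TPM at 25 °C, 14.8, 12.04 and 11.2 at 38/33 °C and 11.9, 17.4 and 16.6 at 40/35 °C in Ken. The MH libraries gave 6.78, 9.66 and 14.01 TPM at 25 °C, 5.69, 6.7 and 10.1 at 38/33 °C and 6.05, 9.49 and 7.82 at 40/35 °C. Heated Ken libraries lay above their controls, and heated MH libraries overlapped with theirs. The log2 change was 0.29 ± 0.29 in Ken 38 and 0.64 ± 0.29 in Ken 40, and in MH -1.16 ± 0.29 at 38/33 °C and -1.29 ± 0.29 at 40/35 °C, with adjusted p-values of 0.461, 0.0722, 0.00277 and 0.000605. The 2 falls in MH were not called with library totals alone (-0.35 and -0.30), and with that scaling Ken was called as a rise at both temperatures (0.86 and 1.12), at 40/35 °C also by DESeq2 (0.82). The second entry, TRINITY_DN39683_c0_g1 (HPR3), fell in Ken 40 and in both heated MH groups, from 3.83 to 7.03 TPM in the controls to 1.01 to 3.36 TPM at 40/35 °C. The main peroxisomal form carries the name glycerate dehydrogenase in the table and is no member by the text match.

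The glycine cleavage system of the mitochondrion splits glycine and releases CO2 and ammonia. Its P protein, glycine dehydrogenase TRINITY_DN57222_c1_g1 (GDCSPA), measured 552, 563 and 474 TPM at 25 °C, 10.8, 11.2 and 21.3 at 38/33 °C and 10.2, 9.23 and 8.1 at 40/35 °C in Ken. Its levels in MH were 645, 603 and 551 TPM at 25 °C, 26.1, 15.2 and 80.5 at 38/33 °C and 3.21, 2.35 and 1.57 at 40/35 °C. Ken was at its low level at 38/33 °C already, and MH 40 went below Ken 40 in every library. The log2 change was -5.88 ± 0.61 in Ken 38 and -6.21 ± 0.62 in Ken 40, and in MH -4.60 ± 0.57 at 38/33 °C and -8.76 ± 0.69 at 40/35 °C.

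The H protein carries the lipoyl arm of the complex and has 2 entries with different courses. The main one, TRINITY_DN35904_c0_g1 (GDCSH), measured 1273, 1115 and 1624 TPM at 25 °C, 5.48, 13.6 and 12.9 at 38/33 °C and 3.75, 3.25 and 2.51 at 40/35 °C in Ken. The values in MH were 1109, 1044 and 1129.7 TPM at 25 °C, 10.5, 4.5 and 76.2 at 38/33 °C and 0.3, 1.13 and 1.35 at 40/35 °C. No other of the 14 abundant genes had a lower log2 change in Ken 38, Ken 40 or MH 38, at -7.29 ± 1.004 in Ken 38 and -8.92 ± 1.08 in Ken 40, and in MH -5.66 ± 0.93 at 38/33 °C and -10.91 ± 1.19 at 40/35 °C. The entry TRINITY_DN31461_c0_g2 (H protein 2; its table name GDH2 is not glutamate dehydrogenase) measured 9.36, 11.4 and 10.9 TPM at 25 °C, 4.09, 2.52 and 3.64 at 38/33 °C and 16.6, 16.5 and 14.8 at 40/35 °C in Ken. In MH it measured 8.02, 9.57 and 3.19 TPM at 25 °C, 12.3, 13.3 and 11.9 at 38/33 °C and 11.2, 9.77 and 9.97 at 40/35 °C. It dipped in Ken 38 below every other library except 1 of MH control and was above its controls in Ken 40. It fell in Ken 38 with a log2 change of -2.11 ± 0.29 (adjusted p = 5.75e-06) and rose from Ken 38 to Ken 40 by 2.31 ± 0.30 (adjusted p = 5.12e-06). In MH 40 its change of -0.17 was not called, and its sign was positive with RLE factors (0.17, no call) and with library totals (0.84, adjusted p = 0.0132 by edgeR).

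**Figure D4:**
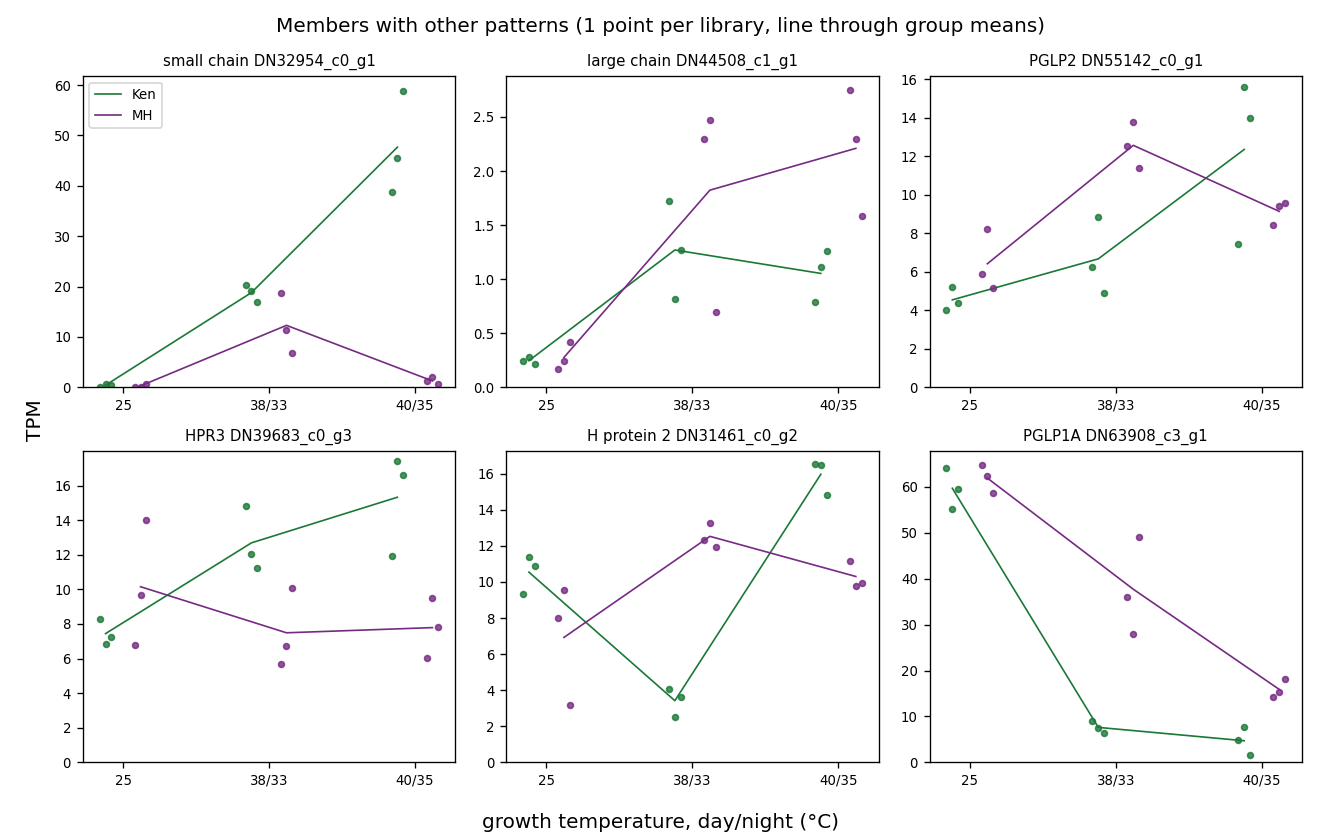
TPM of 6 genes that depart from the common fall, at 25 °C, 38/33 °C and 40/35 °C, with 1 point per library and a line through the group means. The small chain DN32954_c0_g1 reaches 38.7 to 58.9 TPM in Ken 40, H protein 2 dips to 2.52 to 4.09 TPM in Ken 38, and PGLP1A DN63908_c3_g1 stays higher in heated MH than in heated Ken.

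Read by the compartment named in the descriptions, 22 of 29 plastid entries, 4 of 4 cytosolic ones and 3 of 3 mitochondrial ones were tested. Of the plastid entries 18 fell in Ken 38 and 19 in Ken 40, 20 fell in either heated MH group, and 1 rose in each. All 4 cytosolic entries fell in each comparison. Of the 3 mitochondrial ones 3, 2, 2 and 2 fell in Ken 38, Ken 40, MH 38 and MH 40. The other 6 entries name no compartment and include both large chains, although these are encoded in the plastid. Of the 5 tested among them 1, 1, 3 and 3 fell and 1, 2, 1 and 1 rose in that order. In Ken 38, Ken 40, MH 38 and MH 40 15.9%, 20.7%, 17.3% and 24.6% of all tested genes fell. Among tested genes with a description these shares were 29.2%, 32.5%, 30.6% and 42.1%. In MH 40 the cytosolic entries had log2 changes from -4.78 to -2.02 and a median of -3.46, and the plastid entries a median of -6.41. No test was made between compartments.

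The step from 38/33 to 40/35 °C was tested within each material, and whether the steps differ between the materials was not tested. In Ken 13 of 34 genes fell further and 4 rose, where 16.2% of all tested genes fell and 14.3% rose. Of tested genes with a description 20.6% fell and 20.5% rose in Ken, and 27.3% fell and 10.2% rose in MH. In MH 23 of the 34 fell and 0 rose, where 15% and 11.2% of all tested genes did. At an unadjusted p below 0.05 (edgeR) the number that rose was also 0, and without MH 38 replicate 3 it was 1. By DESeq2 21 fell and 0 rose in MH. In Ken the 17 calls (30.5% of all tested genes were called) became 9 to 11 when any 1 library but Ken 38 replicate 1 was left out. Of the 10 genes that fell in both steps, 2 lost the call in MH without MH 38 replicate 3, one of them TRINITY_DN47714_c0_g1, with a log2 change of -2.60 (adjusted p = 0.0421, edgeR) with it and -0.66 (adjusted p = 0.468) without it. The 10 include the 3 activases, GAPB, phosphoribulokinase, the plastid fructose-1,6-bisphosphatase TRINITY_DN47714_c0_g1 and the sedoheptulose bisphosphatase TRINITY_DN34658_c2_g1. The largest steps in MH among abundant genes were those of GAPB, TRINITY_DN56965_c0_g1, at -6.14 ± 0.66, and of the H protein, TRINITY_DN35904_c0_g1, at -5.25 ± 0.98, while in Ken the latter changed by -1.63 ± 0.83 (adjusted p = 0.162). Without MH 38 replicate 3 these steps in MH were -5.03 and -3.18, the latter beside -3.17 for the sedoheptulose bisphosphatase TRINITY_DN57031_c1_g1 and -3.16 for glycine dehydrogenase TRINITY_DN57222_c1_g1. The 4 genes that rose from Ken 38 to Ken 40 were the small chain TRINITY_DN32954_c0_g1, the plastid fructose-1,6-bisphosphatase TRINITY_DN61664_c0_g1, PGLP2 TRINITY_DN55142_c0_g1 and H protein 2 TRINITY_DN31461_c0_g2.

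The difference of the MH and Ken responses was tested as an interaction. At 40/35 °C 16 of 34 genes were called, where 21.4% of all tested genes were, 15 with a lower value in MH (11.1% of all) and 1 with a higher one (10.3%). The median difference was -1.75 over the 34, 0.36 over all tested genes and -0.22 over tested genes with a description. Of the tested genes with a description 21.1% had a lower value in MH and 10.2% a higher one. The called values ran from -5.54 for the small chain TRINITY_DN32954_c0_g1, through -3.52 for GAPB TRINITY_DN56965_c0_g1 and -3.23 for sedoheptulose bisphosphatase TRINITY_DN57031_c1_g1, to 1.81 for the PGLP1A entry TRINITY_DN63908_c3_g1. The activases TRINITY_DN55582_c0_g1 and TRINITY_DN57425_c0_g3 differed by -2.56 ± 0.79 and -2.79 ± 0.80 (adjusted p = 0.0367 and 0.0255), and the first was not called with any 1 of the 12 libraries left out. The main small chain TRINITY_DN40113_c2_g3, with -2.05 ± 0.94 (adjusted p = 0.149), and phosphoribulokinase TRINITY_DN46520_c0_g1, with -1.95 ± 0.91 (adjusted p = 0.16), had no call.

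At 38/33 °C 4 of 34 genes were called, where 10.8% of all tested genes were. Of tested genes with a description 9.08% had a higher value in MH and 7.31% a lower one. Of the 4, 3 had a higher value in MH, as 6.07% of all tested genes did, namely H protein 2 TRINITY_DN31461_c0_g2 with 2.26 ± 0.40 and the 2 PGLP1A entries described above. A lower value, as 4.78% of all had, was found for HPR3 TRINITY_DN39683_c0_g3 with -1.44 ± 0.41 (adjusted p = 0.024). This count rests on MH 38 replicate 3, in which all 14 abundant genes were higher than in the other 2 MH 38 libraries, by 1.14 to 7.27 times the higher of them. Without that library 15 of 35 genes were called, 12 with a lower value in MH and 3 with a higher one, while calls over all genes went from 7591 to 14839. Of these calls over all genes 55.9% had a higher value in MH with the library and 46.7% without it. The number of genes tested without it is not given here, so no share over all genes stands beside the 15 of 35. Of the 14 abundant genes 8 were among the 12. The main small chain TRINITY_DN40113_c2_g3 then differed by -2.23 in place of -0.48, and the transketolase TRINITY_DN40712_c0_g4 by -2.80 in place of -1.56. The median log2 change of the 14 in MH 38 was -3.99 with the library and -5.04 without it, and 29 genes fell either way.

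**Figure D5:**
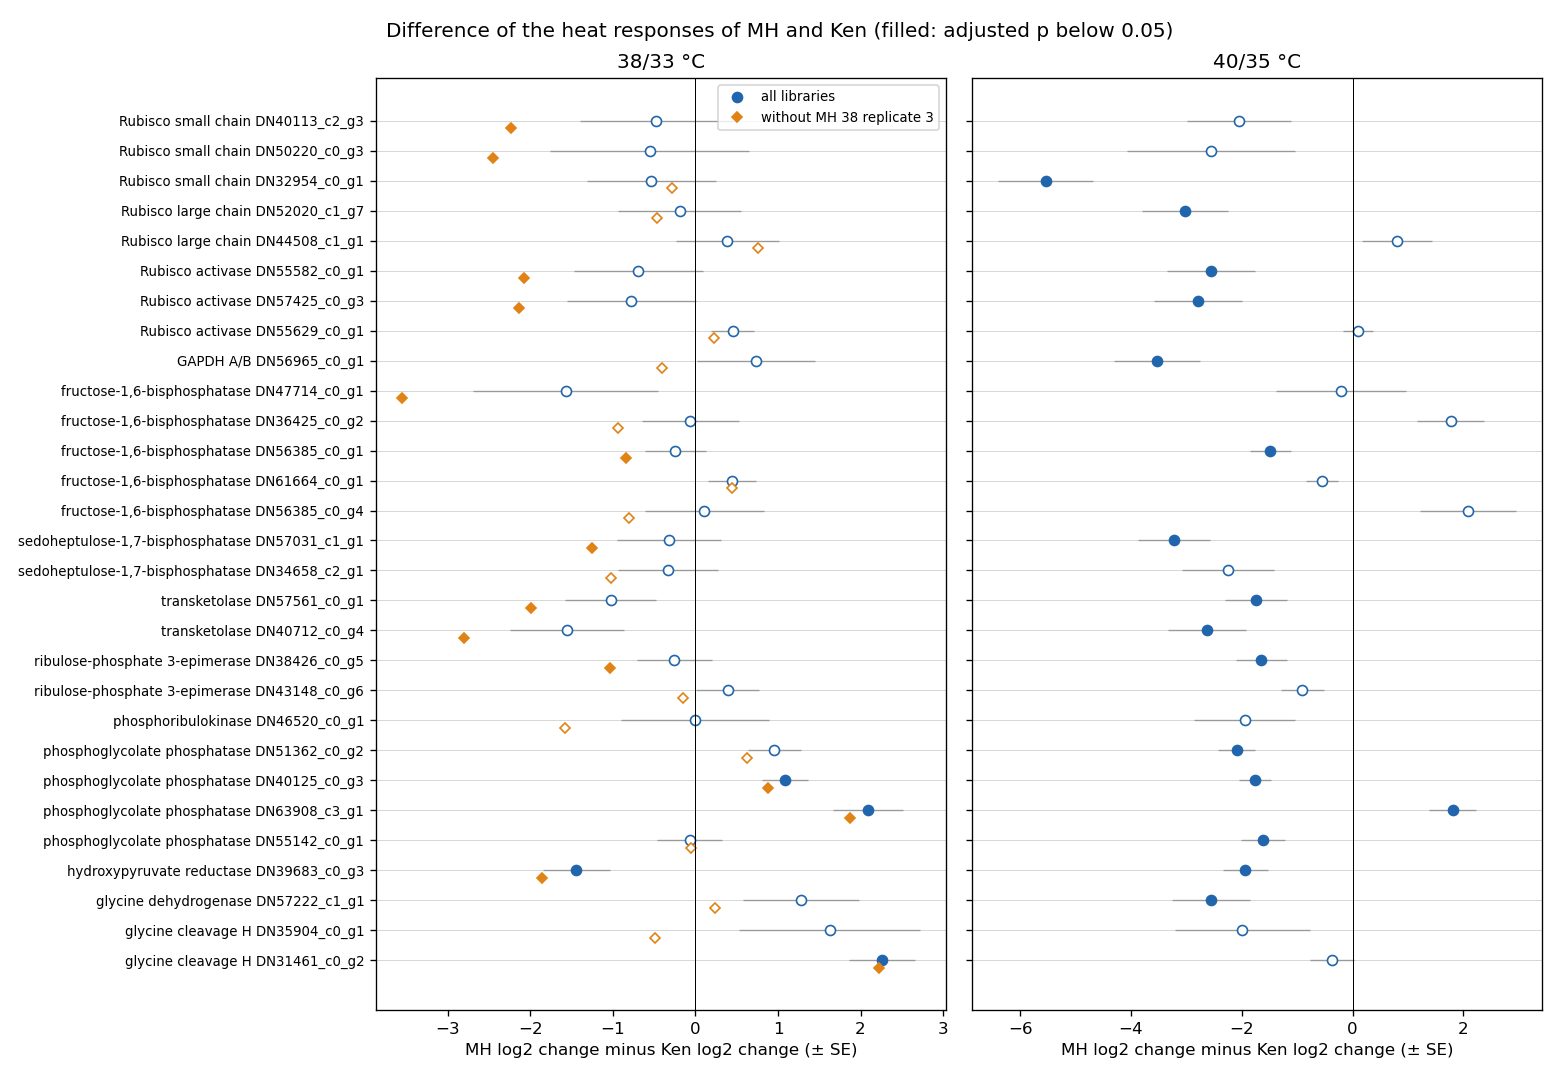
MH log2 change minus Ken log2 change (± SE, edgeR) of the 29 named genes at 38/33 °C (left) and 40/35 °C (right), with filled symbols for an adjusted p below 0.05 and diamonds for the fit without MH 38 replicate 3. At 40/35 °C most filled symbols lie left of 0, and at 38/33 °C the diamonds of the main small chain and of the transketolase TRINITY_DN40712_c0_g4 lie left of their circles.

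Few of these genes were called between the unheated materials with all 6 groups in the fit. In MH control against Ken control 4 of 34 were called, where 21.8% of all tested genes were. The 2 that were higher in MH are the small chain TRINITY_DN50220_c0_g3 and the sedoheptulose bisphosphatase fragment TRINITY_DN57031_c1_g4, and the 2 lower ones are TRINITY_DN34658_c2_g1 and the plastid fructose-1,6-bisphosphatase TRINITY_DN61664_c0_g1, with -0.66 ± 0.20 (adjusted p = 0.0222). With only the 2 control groups in the fit 14 of 32 were called, 8 of them lower and 6 higher in MH. Over all genes that fit gave 16115 calls, 50.3% of them higher in MH, against 15276 with all groups. How many genes it tested is not given here, so no share over all genes stands beside the 14 of 32. By TPM, the levels in both controls began with the small chain (in MH both main entries), the 2 activases, the H protein and GAPB. Phosphoribulokinase and glycine dehydrogenase came next in Ken, and in MH sedoheptulose bisphosphatase preceded them. In Ken control GAPB (1033 to 1123 TPM) overlapped with the H protein (1115 to 1624 TPM) and with phosphoribulokinase (950.1 to 1075 TPM), and glycine dehydrogenase (474 to 563 TPM) with a transketolase (495 to 530.5 TPM), and in MH control phosphoribulokinase (609 to 662 TPM) and glycine dehydrogenase (551 to 645 TPM) overlapped, as did the 2 activases (7305 to 8551 and 6420.0 to 7514 TPM).

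Other enzymes and helpers of the 2 pathways, taken by a list of names, mostly fell too. Of 70 entries 63 were tested, and 49 fell and 2 rose in Ken 38, 48 fell and 6 rose in Ken 40, 43 fell and 3 rose in MH 38, and 52 fell and 4 rose in MH 40. Of all tested genes 15.9%, 20.7%, 17.3% and 24.6% fell in that order, and 20.3%, 25.1%, 30.1% and 42.7% rose. Among tested genes with a description 29.2%, 32.5%, 30.6% and 42.1% fell. Without 8 entries that the names caught by accident, 3-phosphoglycerate dehydrogenases of serine synthesis and aldolase methyltransferases, 43, 43, 41 and 46 of 55 fell. Among them, a glycolate oxidase entry, TRINITY_DN34760_c4_g1, fell with log2 changes of -4.07, -4.57, -3.84 and -6.33, in Ken at 38/33 and 40/35 °C and then in MH likewise. The peroxisomal hydroxypyruvate reductase named glycerate dehydrogenase, TRINITY_DN58271_c0_g1, fell with log2 changes of -7.27, -6.15, -5.55 and -7.57 in the same order. The T protein of glycine cleavage, aminomethyltransferase TRINITY_DN38732_c0_g4, fell with log2 changes of -4.19, -4.44, -4.22 and -6.86. Another glycolate oxidase entry, TRINITY_DN35239_c1_g2, had Ken means of 122.3 TPM at 25 °C, 66.2 at 38/33 °C and 145.8 at 40/35 °C. Its MH means were 89.8, 38.1 and 32.55 TPM. From 25 to 40/35 °C a translocator entry (PLGG1), TRINITY_DN33754_c0_g1, went from 5.5 to 19.6 TPM (Ken) and 17.2 to 13.6 TPM (MH). The dicarboxylate transporter DIT2, TRINITY_DN51463_c2_g1, went from 10.9 to 26.9 TPM (Ken) and 9.71 to 17.4 TPM (MH). In contrast CP12-3, TRINITY_DN42956_c2_g3, a relative of the protein that binds GAPDH and phosphoribulokinase, rose by 2.85 in Ken 38, 2.08 in Ken 40 and 0.84 in MH 38, and was at -0.17 in MH 40 without a call. Mean TPM of CP12-1, TRINITY_DN33100_c2_g6, went from 1169 to 56.8 in Ken 40 and from 458 to 39.5 in MH 40. A second CP12-3 entry, TRINITY_DN42956_c2_g5, went from 8.77 to 2.34 and from 10.6 to 0.77. The CP12-2 entry TRINITY_DN29136_c0_g1 had means of 0.79 to 1.61 TPM in Ken and 0 in MH.

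Of the 42 genes 7 had counts in 1 material only. The 4 found only in Ken, a small chain (TRINITY_DN61783_c1_g4), 2 activases and a GAPA fragment, all have their best database match in Citrus clementina. The 3 found only in MH, a small chain, an activase and a GAPA fragment, all have it in Zea mays and are at 0 in all MH 40 libraries. The small chain TRINITY_DN61783_c1_g4 was at 0, 6.34 and 0 TPM in the Ken controls, 0, 6.06 and 3.37 at 38/33 °C, and 5.66, 6.89 and 4.51 at 40/35 °C, so single libraries of 1 group held either none or several TPM. Among all described genes with a match in Citrus clementina 37.3% had counts in Ken only, against 1.56% of all described genes, and among those with a match in Zea mays 9.39% had counts in MH only, against 3.28%. Where the reads of these entries came from was not tested. The 8 genes without a test are 204 to 461 bases long and none exceeded 6.7 TPM in a library. One of them, described by mouse Fbp1 and matching a green alga, had 3 counts in Ken control and 11 in MH 40.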

How the data were processed

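Leaf RNA of 18 libraries was sequenced. Per the labels' protocols, the authors extracted RNA with Trizol and made Illumina libraries. Adapters were trimmed with cutadapt 1.9, per the submitters' processing notes. No source used here names the assembler, quantifier or strand setting. The deposited table holds, per assembled gene and library, an estimated count made by the authors with no normalisation (89.8% to 96.7% whole numbers, tolerance 1e-06) and a second value read as TPM, since the deposited columns sum to 967894 to 991008 per library. Depth was 15845190 to 22867268 counts per library. No genome or sequence was used.

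Columns were matched to samples by library name. The members and gene lists were chosen with earlier results of these data known. Counts were rounded and fitted in edgeR 4.0.16 (R 4.3.3; filterByExpr min.count 10 and min.total.count 15, TMM factors 0.684 to 1.54, robust quasi-likelihood, 6 group means, 12 residual degrees of freedom, Benjamini-Hochberg over 70022 genes). Standard errors are the log2 change divided by the root of F. Named are tested genes with a mean of at least 5 TPM, the top call of each direction and comparison, and the top gene of each role, which gives 29. Fits were tested on simulated counts. Alternatives were DESeq2 1.42.0, other scalings, filters, thresholds and fits, replicate blocks and left-out libraries. A list without accidental entries was added after seeing the data. Tables and figures used pandas 2.3.3 and matplotlib 3.10.9 in Python 3.11.15.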

Additional observations from a re-analysis of the deposited data

Results flagged for a closer look

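In 20 cases the heat response of a gene differed between MH and Ken by the interaction test (edgeR, adjusted p below 0.05). Values are MH minus Ken on the log2 scale, so a negative value is a larger fall or smaller rise in MH. At 38/33 °C they were 2.26 for H protein 2 TRINITY_DN31461_c0_g2, 2.09 for PGLP1A TRINITY_DN63908_c3_g1, 1.09 for PGLP1A TRINITY_DN40125_c0_g3 and -1.44 for HPR3 TRINITY_DN39683_c0_g3. The first 2 were called with each of the 12 libraries left out in turn, the third in 11 of 12, and HPR3 in 6 of 12.

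At 40/35 °C the values in Rubisco and the Calvin cycle were those of GAPB TRINITY_DN56965_c0_g1 with -3.52, sedoheptulose bisphosphatase TRINITY_DN57031_c1_g1 with -3.23, the large chain TRINITY_DN52020_c1_g7 with -3.02, the activases TRINITY_DN57425_c0_g3 with -2.79 and TRINITY_DN55582_c0_g1 with -2.56, the small chain TRINITY_DN32954_c0_g1 with -5.54, the transketolases TRINITY_DN40712_c0_g4 with -2.63 and TRINITY_DN57561_c0_g1 with -1.74, the plastid epimerase TRINITY_DN38426_c0_g5 with -1.65 and the cytosolic fructose-1,6-bisphosphatase TRINITY_DN56385_c0_g1 with -1.49. In photorespiration they were -2.56 for glycine dehydrogenase TRINITY_DN57222_c1_g1, -2.09 for PGLP1A TRINITY_DN51362_c0_g2, -1.76 for PGLP1A TRINITY_DN40125_c0_g3, -1.62 for PGLP2 TRINITY_DN55142_c0_g1, -1.93 for HPR3 TRINITY_DN39683_c0_g3 and 1.81 for PGLP1A TRINITY_DN63908_c3_g1. The activase TRINITY_DN55582_c0_g1 and the transketolase TRINITY_DN57561_c0_g1 were called in 0 of the 12 fits with a library left out (log2 differences of -2.71 to -2.39 and -1.84 to -1.67, edgeR), and the activase TRINITY_DN57425_c0_g3 in 4. The epimerase and glycine dehydrogenase were called in 5 of 12 and the transketolase TRINITY_DN40712_c0_g4 in 10. The other 10 were called in all 12.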

How the results depend on the processing

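Counts of called members changed little for the heated groups: without 1 library in turn 25 to 27 members were called in Ken 38, 29 in Ken 40, 30 to 31 in MH 38 and 30 to 31 in MH 40, and no alternative moved these counts by over 1.5 times. Over 116 values of 29 named genes, 1707 alternative values kept sign and side of the threshold in 1658 cases, lost the call in 24, gained one in 14 and reversed in 11, and 99 of the 116 values held throughout. DESeq2 gave no adjusted p for phosphoribulokinase. For Ken 40 against Ken 38 (17 calls), an adjusted p below 0.01 left 9, and left-out libraries gave 9 to 13. For MH 40 against MH 38 (23 calls), the library number block gave 16, an adjusted p below 0.01 left 17, and left-out libraries gave 18 to 24. For the controls (4), a fit of only those groups gave 14, an adjusted p below 0.01 gave 2, and left-out libraries gave 2 to 4, the lowest without MH control replicate 3. For the difference at 38/33 °C (4), DESeq2 gave 7, an adjusted p below 0.01 gave 2, and left-out libraries gave 2 (without Ken 38 replicate 1) to 15 (without MH 38 replicate 3). For the difference at 40/35 °C (16), an adjusted p below 0.01 gave 9, left-out libraries 10 (without Ken control replicate 2) to 14. The cause was not tested.

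The reported values that reversed had no call. PGLP2 TRINITY_DN55142_c0_g1 ranged from -0.0628 to 0.383 in Ken 38 and from -0.0746 to 0.323 in MH 38 with libraries left out, and in MH 40 it was 0.50 with library totals and 0.0913 with factors of described genes. H protein 2 TRINITY_DN31461_c0_g2 ranged from -0.19 to 0.44 in MH 38 and from -0.54 to 0.0902 in MH 40 with libraries left out, and in MH 40 it was 0.17 with RLE factors and with DESeq2, 0.84 with library totals (then called), 0.43 with factors of described genes and 0.0592 with a minimum count of 50.

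Same-numbered libraries did not deviate together over all tested genes (correlations of -0.11 to 0.08), so no pairing by number was seen. A small shared effect could stay hidden in the noise of 3 libraries per group. With the replicate block 27, 29, 31 and 31 members were called in the 4 heated groups, 17 and 22 in the steps of Ken and MH, 4 between controls, and 4 and 16 for the differences. The library number block could not be fitted for MH 40, the controls and the difference at 40/35 °C. At this depth, changes of genes with a few TPM rest on few counts.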

Other observations

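Outside the text match, catalases, the peroxisomal enzymes that remove the hydrogen peroxide made by glycolate oxidase, split into entries that fell and entries that rose (chosen after their values were seen). The catalase entries TRINITY_DN61517_c0_g4 and TRINITY_DN61517_c0_g1 went from mean levels of 1715 and 1158 TPM in Ken control to 106 and 79.5 TPM in Ken 40, and fell in all 4 heated groups, by -3.82, -4.51, -4.13 and -7.07 on the log2 scale (edgeR) for the first. The entry TRINITY_DN45961_c2_g5, described as Arabidopsis catalase 2, went from 18.6 to 112 TPM in Ken and from 20.3 to 181.3 TPM in MH at 40/35 °C, and rose by 2.25 and 2.45. The entry TRINITY_DN58295_c0_g1, described as barley catalase isozyme 2, was at 928 TPM in Ken control and 1045 TPM in Ken 40, with -0.51 and -0.22 and no call, and fell in MH with log2 changes of -2.26 and -2.95. Among the carbonic anhydrases, which supply Rubisco with CO2, the plastid entry TRINITY_DN49065_c2_g2 went from 3046 to 5.98 TPM in Ken 40, a log2 change of -9.85, and from 2881 to 7.03 TPM in MH 40, a log2 change of -10.04. The plastid entry TRINITY_DN61289_c1_g1 went from 4799 to 51.9 TPM in Ken 40 and from 4087 to 13.1 in MH 40. Not all entries fell so far, as TRINITY_DN49440_c0_g1 (BCA5) went from 13.1 to 19.9 TPM in Ken 40 and from 19.7 to 7.69 in MH 40.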
